A study of Drosophila melanogaster with 29 samples.

Results

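The acetylcholine genes described here are *Ace*, which encodes acetylcholinesterase, 8 nicotinic receptor subunit genes (*nAChRalpha1* to *nAChRalpha7* and *nAChRbeta1*) and the muscarinic receptor gene *mAChR-A*. They were chosen by symbol, matched through FlyBase identifiers, among genes with a row, and they are 10 of the 7602 genes in a table of DESeq2-normalized counts from *Drosophila melanogaster* photoreceptor nuclei. The RNA group was 3 libraries of nuclear RNA from male flies aged 10 days. The flies were w and ry[506] and carried the transgenes P{w[+mC]=UAS-GFP-Msp300KASH}attP2 and P{ry[+t7.2]=rh1-GAL4}3, so that green fluorescent protein joined to the KASH domain of Msp300 tagged the nuclear envelope and the nuclei could be isolated by the tag. The *rh1* promoter is active in the outer photoreceptors, which limits the model to these cells and to whatever nuclei came along with them. Flies were raised in a light and dark cycle. All 3 libraries share this genotype, sex and age, and no RNA of another tissue or condition was analysed here. Chromatin assays make up the other 26 samples of the series (ATAC-seq, histone ChIP-seq with input, and histone CUT&Tag) and were not used.

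Acetylcholine is the main fast excitatory transmitter of the insect brain, while fly photoreceptors release histamine. Nicotinic receptors are cation channels built from subunits that assemble around a central pore, and acetylcholine opens them within the synapse. Muscarinic receptors are slower and act through G proteins. Acetylcholinesterase splits acetylcholine in the synaptic cleft and is the target of organophosphate and carbamate insecticides. A cell that receives acetylcholine needs receptor genes, and a cell that releases it needs *ChAT*, which makes the transmitter, and *VAChT*, which loads it into vesicles.

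Replicates 1, 2 and 3 held 3781302, 3051440 and 3769863 reads assigned to the 7602 genes, and 1 read was worth 1.29, 1.49 and 1.32 normalized counts. The labelled cell type was checked against 12 photoreceptor markers. All 12 had a row, with means from 1440 (*Hdc*, histamine synthesis) to 71061 normalized counts (*norpA*, phospholipase C), and they held 5.65% ± 0.19 of all normalized counts (SD, n = 3).

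*Ace* had the highest level of the set, both as a normalized count and per length of gene. In replicates 1, 2 and 3 its normalized counts were 2719, 2441 and 2881, with a mean of 2680 ± 223 (SD, n = 3), from 2114, 1634 and 2179 reads. Replicate 2 was the lowest and replicate 3 the highest. *Ace* alone held 60.8% ± 0.47 of the normalized counts of the 10 genes, which together held 0.0917% ± 0.0028 of the table.

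Among the alpha subunits, *nAChRalpha4*, a gene with known effects on sleep, had 405.2, 386.8 and 485.2 normalized counts (426 ± 52). Its highest library was replicate 3. *nAChRalpha5* had 365, 370 and 387 (374 ± 12), and its 3 libraries lay closer together than those of any other gene of the set, with a coefficient of variation of 3.08%. *nAChRalpha6*, whose product is the target of the insecticide spinosad, had 332, 281 and 336 (316 ± 31), with replicate 2 the lowest. *nAChRalpha7*, which is needed for the escape response driven by the giant fiber, had 229, 209 and 246 (228 ± 18). These 4 genes had at least 140 reads in every library, so their levels rest on moderate counts.

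The remaining alpha subunits were lower or less even. *nAChRalpha1* had 164.6, 106.0 and 108.4 normalized counts (126 ± 33), so replicate 1 was the high one while replicates 2 and 3 were nearly level. *nAChRalpha3* had 46.3, 52.3 and 56.8 (51.8 ± 5.3). *nAChRalpha2* was at the low end, with 12, 11 and 6 reads, or 15.4, 16.4 and 7.93 normalized counts (13.3 ± 4.6). The lower value of replicate 3 rests on 6 reads.

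*nAChRbeta1*, a subunit without the paired cysteines that define the alpha class, had 158.2, 125.5 and 145.4 normalized counts (143 ± 17). *mAChR-A*, a receptor that signals through G proteins of the Gq type, had 48.9, 52.3 and 44.9 (48.7 ± 3.7). These values are the ones drawn in the plot of normalized counts by library.

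**Figure D1:**
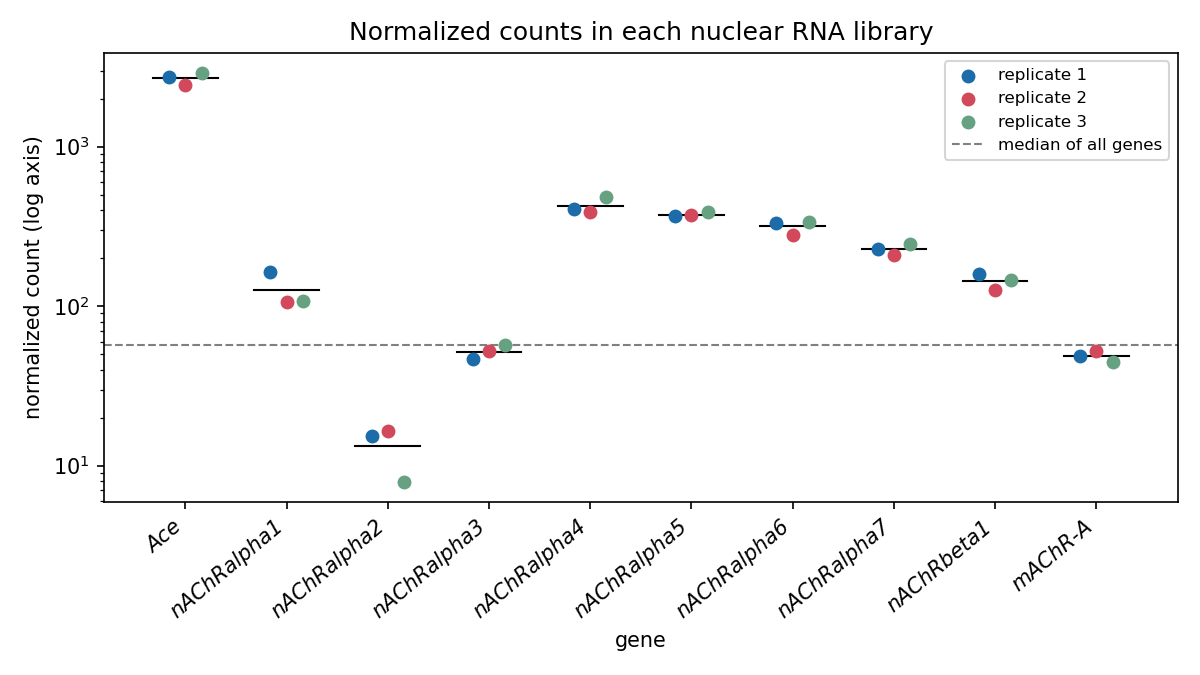
Normalized counts of the 10 acetylcholine genes (log axis) in each of the 3 nuclear RNA libraries; points are libraries, black bars the mean, and the dashed line the median of all genes, 56.8. *Ace* lies between 2441 and 2881, 6 subunit genes lie above the dashed line, and *nAChRalpha2* is the lowest at 13.3.

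Before any division by length, 7 of the 10 genes lay above the table median of 56.8 normalized counts. Their median log2(normalized count + 1) exceeded that of all genes by 1.64 ± 0.15 (SD, n = 3). Longer genes had higher counts, however: across 7539 genes, Spearman's rho between mean normalized count and gene span was 0.49, a description across genes, which are not independent replicates. Levels of different genes are therefore set against each other per kilobase of gene span, the distance from the first to the last base of the gene including introns, taken from RefSeq for Release 6. Whether the deposited counts cover introns is not given in the sources used here. If they cover exons alone, division by span lowers genes with long introns, and the orders with and without division are both given for that reason.

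The spans of the set differ widely. *Ace* lies at chr3R:13222951-13259517, or 36.6 kb. *nAChRalpha6* is the longest at 92.9 kb (chr2L:9793317-9886250), followed by *nAChRalpha3* at 91.0 kb (chrX:8276200-8367169) and *nAChRalpha4* at 80.8 kb (chr3L:23206669-23287448). *nAChRalpha1* spans 63.3 kb (chr3R:24393896-24457157) and *nAChRalpha5* 54.2 kb (chr2L:14040170-14094401). The short genes are *nAChRalpha7* with 21.4 kb (chrX:19327075-19348447), *mAChR-A* with 11.7 kb (chr2R:24378630-24390294), *nAChRbeta1* with 6.65 kb (chr3L:4429349-4435993) and *nAChRalpha2* with 5.72 kb (chr3R:24485428-24491147). *CG1636*, with 65.5 normalized counts, overlaps *nAChRalpha3* by 251 bases, and *CG13578*, with 15.5, overlaps *mAChR-A* by 111, so reads there may have been shared. Genes without a row overlap members too. The longest such overlaps are lncRNA:CR46475 with 13037 bases of *nAChRalpha4* and *NimC4* with 1282 bases of *nAChRalpha5*.

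Per kilobase, *Ace* remained first and *nAChRbeta1* became the highest receptor gene. *Ace* had 74.4, 66.7 and 78.8 normalized counts per kb in replicates 1, 2 and 3 (73.3 ± 6.1), which put it at percentile 83.7 of the 7541 genes with a span. *nAChRbeta1* had 23.8, 18.9 and 21.9 (21.5 ± 2.5), at percentile 53.1, close to the median of all genes, 19.6 per kb. No other receptor gene reached that median, and the median of the 10 genes was 4.72 per kb, below it. *nAChRalpha7* followed with 10.7 ± 0.9 per kb, then *nAChRalpha5* with 6.90 ± 0.21 and *nAChRalpha4* with 5.27 ± 0.65. *mAChR-A* had 4.17 ± 0.31, *nAChRalpha6* 3.40 ± 0.33, *nAChRalpha2* 2.32 ± 0.81 and *nAChRalpha1* 2.00 ± 0.52. *nAChRalpha3* came last with 0.570 ± 0.058 per kb, at percentile 2.54.

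**Figure D2:**
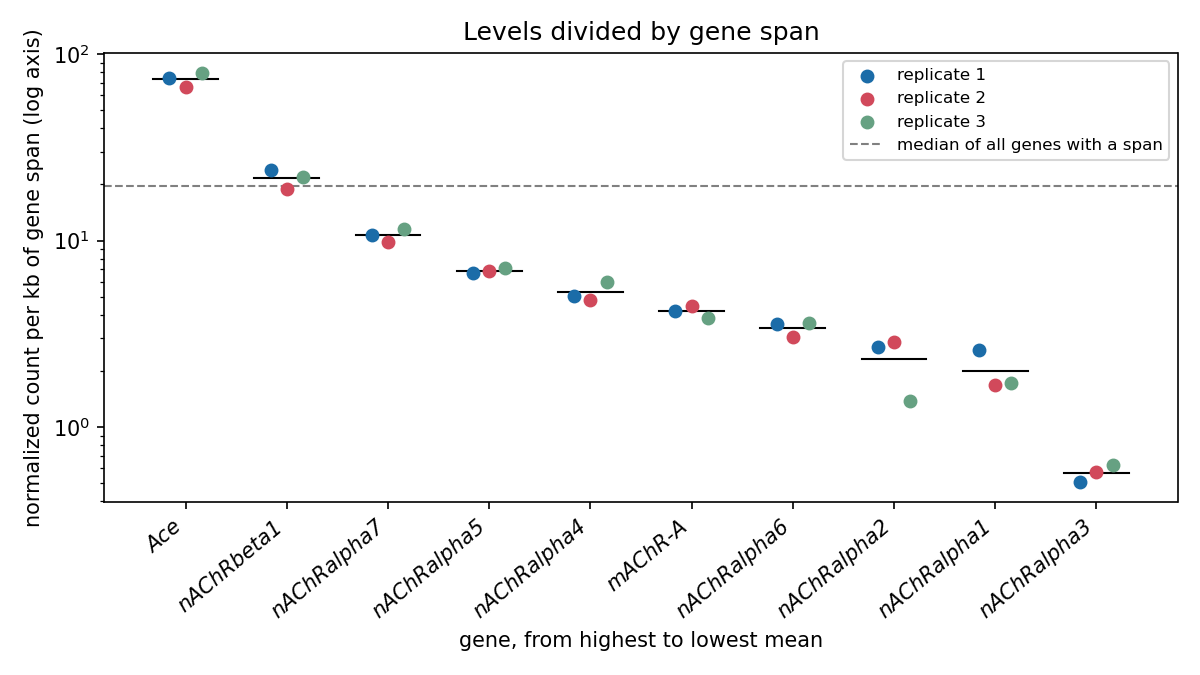
Normalized counts per kilobase of gene span (log axis) for the 10 genes, ordered from the highest to the lowest mean; points are libraries, black bars the mean, and the dashed line the median of the genes with a span, 19.6. *Ace* and *nAChRbeta1* have means above the line, and the mean of *nAChRalpha3* is 0.570.

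Neighbours in this order were compared within each library, where the scaling of libraries cancels. A step was taken as larger than the spread when the order was the same in 3 of 3 libraries and the mean log2 ratio was over 2 times its SD. By that measure 5 of 9 steps per kilobase held. *Ace* exceeded *nAChRbeta1* by 1.77 ± 0.11 on the log2 scale, *nAChRbeta1* exceeded *nAChRalpha7* by 1.01 ± 0.12, *nAChRalpha7* exceeded *nAChRalpha5* by 0.63 ± 0.09, and *nAChRalpha5* exceeded *nAChRalpha4* by 0.40 ± 0.13. The last step, from *nAChRalpha1* to *nAChRalpha3*, was 1.78 ± 0.50. From *nAChRalpha4* through *mAChR-A*, *nAChRalpha6* and *nAChRalpha2* to *nAChRalpha1*, no neighbour differed beyond the spread. The whole range of nicotinic subunits per kilobase, from *nAChRbeta1* to *nAChRalpha3*, was 5.24 ± 0.27 on the log2 scale, a ratio of 37.8. The same pair differed by 1.46 ± 0.27 without division by length. In undivided counts the ends of the range were *nAChRalpha4* and *nAChRalpha2*, 5.07 ± 0.75 apart on the log2 scale, a ratio of 33.6.

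Without division, the steps that held were *Ace* over *nAChRalpha4* (log2 ratio 2.66 ± 0.09), *nAChRalpha6* over *nAChRalpha7* (0.47 ± 0.06), *nAChRalpha7* over *nAChRbeta1* (0.68 ± 0.12), *nAChRalpha1* over *nAChRalpha3* (1.26 ± 0.50) and *mAChR-A* over *nAChRalpha2* (1.95 ± 0.48). *Ace* was thus first on either scale. The place of the subunits was not. *nAChRalpha1*, *nAChRalpha3*, *nAChRalpha4*, *nAChRalpha5* and *nAChRalpha6* each stood lower in the order per kilobase. *nAChRbeta1*, *nAChRalpha7* and *nAChRalpha2* moved up, as did *mAChR-A*.

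The make-up of the nicotinic signal is given as shares within each library, where the scaling between libraries cancels. The 8 subunits together had 1334, 1036 and 1341 reads. *nAChRalpha4* gave 25.3% ± 1.9 of their normalized counts, *nAChRalpha5* 22.4% ± 1.4, *nAChRalpha6* 18.8% ± 0.6 and *nAChRalpha7* 13.6% ± 0.3 (SD, n = 3). *nAChRbeta1* gave 8.51% ± 0.62 and *nAChRalpha1* 7.52% ± 1.83, while *nAChRalpha3* and *nAChRalpha2* gave 3.09% ± 0.35 and 0.803% ± 0.318. Per kilobase the weights differed: *nAChRbeta1* made up 40.8% ± 1.9 of the summed nicotinic level, *nAChRalpha7* 20.3% ± 1.1 and *nAChRalpha5* 13.2% ± 1.0. Both accounts leave *nAChRalpha2* and *nAChRalpha3* under 6% in every library. These are shares of nuclear RNA and say nothing of which subunits meet in a receptor.

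**Figure D3:**
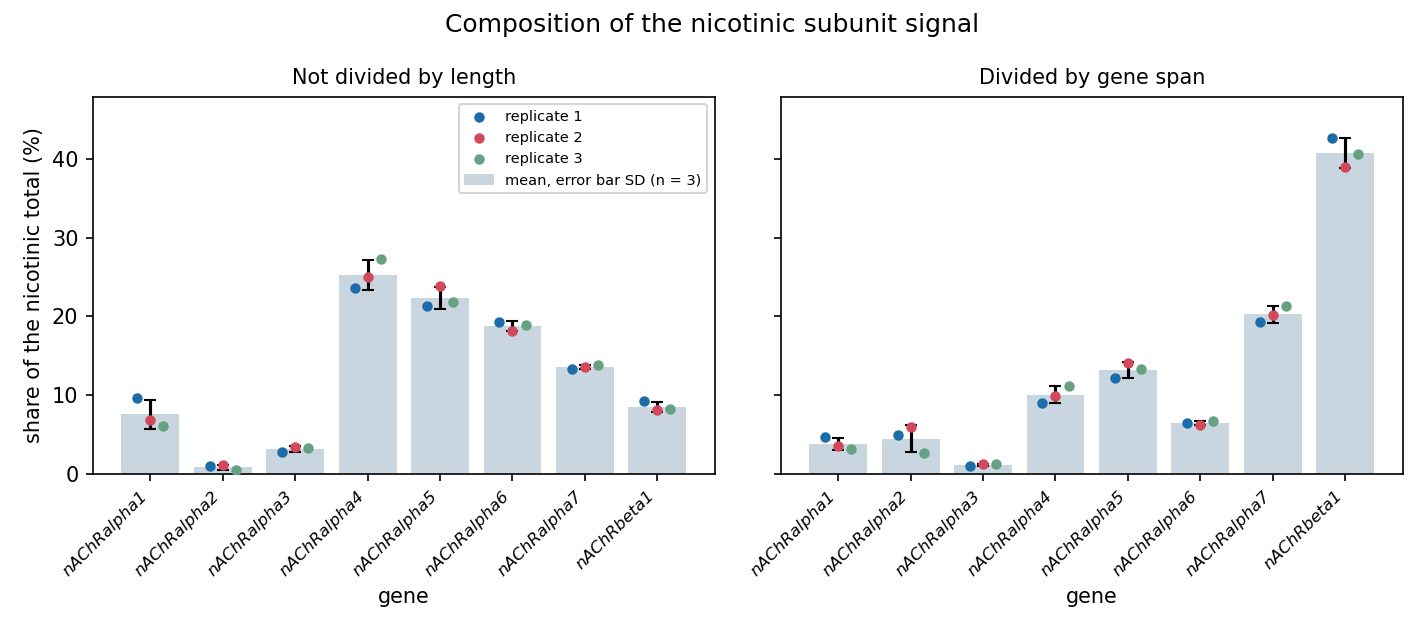
Share of the summed nicotinic level (%) given by each of the 8 subunit genes, from normalized counts (left) and from normalized counts per kb of gene span (right); bars are means, error bars the SD, points the 3 libraries. *nAChRalpha4* leads at 25.3% on the left and *nAChRbeta1* at 40.8% on the right.

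To ask whether the 3 libraries differed by more than counting error, each gene was put through a chi-square test of its reads against the size factors. All 10 genes passed the minimum mean of 10 normalized counts. The test called 2 of the 10, *Ace* and *nAChRalpha1*, against 9.76% of the 6903 genes tested (Benjamini-Hochberg adjusted p under 0.05). *Ace* had an adjusted p of 6.1e-05 and its highest library was only 1.18 times its lowest, and 43.2% of the 651 genes with means of 1000 to 10000 were called. With libraries scaled to equal totals the *Ace* call was lost (adjusted p 0.27), as it was without replicate 2 (0.36). *nAChRalpha1* had an adjusted p of 0.02 with a ratio of 1.55, where 3.12% of the 1985 genes with means of 50 to 200 were called. This call rested on replicate 1, and the chi-square adjusted p without it was 0.97 while the other libraries differed 1.02-fold. It was also just over the threshold without replicate 2 (0.057) and without replicate 3 (0.069).

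*nAChRalpha4* missed the threshold (chi-square adjusted p 0.08, unadjusted 0.0091), with a ratio of 1.25. The other 7 genes had adjusted p-values from 0.41 (*nAChRalpha6*) to 0.94 (*mAChR-A*). For *nAChRalpha2* the observed coefficient of variation of 35.0% was close to the 32.2% that counting alone gives at its depth, and for *nAChRalpha5* the observed 3.08% was below the 6.04% from counting. A miss at these depths does not show that libraries were equal. By the authors' scaling 6 of the 10 genes were lowest in replicate 2 and 6 were highest in replicate 3. The same count was not made over all genes, so it does not set the members apart.

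**Figure D4:**
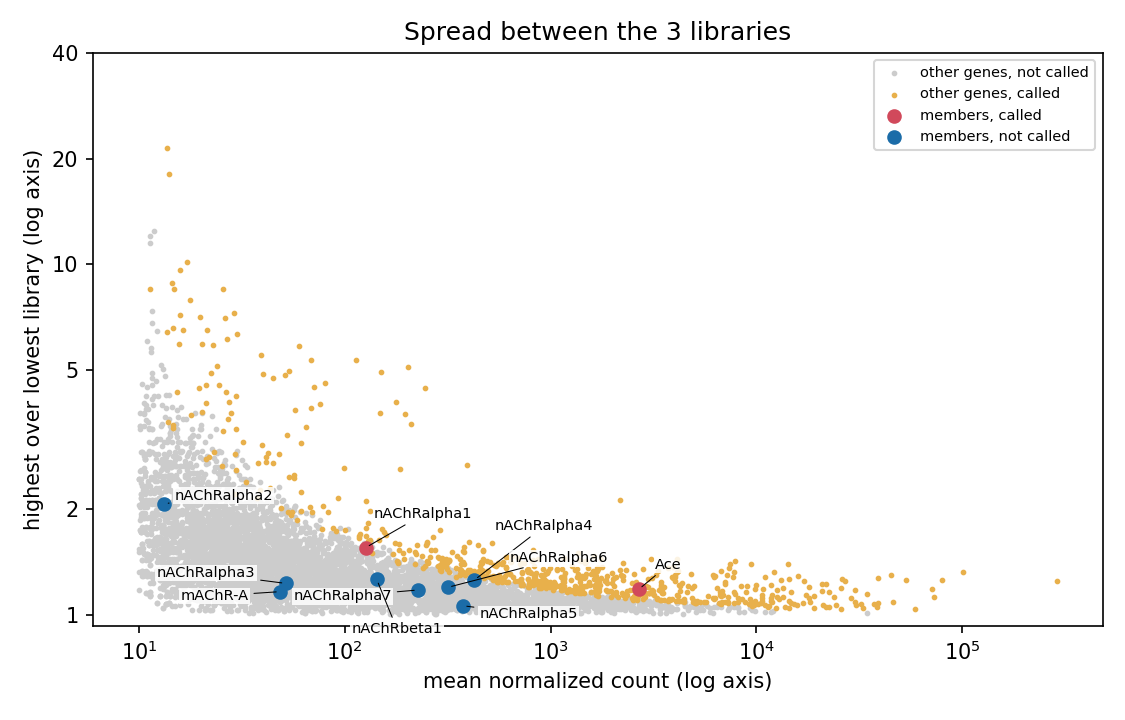
Highest over lowest library (log axis, a ratio) against mean normalized count (log axis) for all genes tested, with the acetylcholine genes as large points; 1 tested gene with a library at 0 is not drawn. *Ace* (1.18) and *nAChRalpha1* (1.55) are the called members, and *nAChRalpha2* has the widest ratio of the set, 2.07.

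The annotation names 10 nicotinic and 3 muscarinic receptor genes in the fly, so the set leaves out 4 of them. *nAChRbeta2*, the next gene of the beta class, had 17, 22 and 29 reads, or 31.0 ± 8.4 normalized counts, and *nAChRbeta1* was above it by 2.06 ± 0.54 on the log2 scale per kilobase. *mAChR-B*, which couples to Gi/o proteins, had 14, 11 and 21 reads (20.7 ± 6.1), and *mAChR-A* was above it by 2.52 ± 0.51 per kilobase. *nAChRbeta3* and *mAChR-C* had no row, which sets no limit on their level because the filter that chose the rows is not given in the sources used here. *nAChRalpha1*, *nAChRalpha2* and *nAChRbeta2* stand in this order within 3R:24393896-24515106. The protein-coding gene between them, *CG31128*, had no row. Within this cluster *nAChRalpha1* and *nAChRalpha2* could not be told apart per kilobase (log2 ratio -0.17 ± 0.55), although *nAChRalpha1* had 9.80 times the normalized counts.

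Of the genes that define cells releasing acetylcholine, *VAChT* was above the median of all genes in normalized counts and below it per kilobase, and *ChAT* and *ChT* were below it on both scales. *VAChT* had 122, 93 and 132 reads, or 156.8 ± 17.8 normalized counts and 11.7 ± 1.3 per kb. *ChAT* had 37, 17 and 29 reads, or 37.1 ± 11.2 normalized counts and 1.38 ± 0.42 per kb. *ChT*, the choline transporter gene, had 19, 11 and 11 reads. *VAChT* lies inside *ChAT*, with 13416 shared bases, so their reads cannot be cleanly parted. The list of other cholinergic genes also holds the receptor genes *nAChRbeta2* and *mAChR-B*. Of its 5 genes with a row, the chi-square test called 0 (adjusted p from 0.35 to 0.64). Their means were 18.5 to 156.8, and 2.28% of genes with means of 10 to 50 and 3.12% of those with means of 50 to 200 were called, so a count of 0 does not set them apart.

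The 8 nicotinic subunits summed to 1716, 1547 and 1773 normalized counts in replicates 1, 2 and 3, against 204.5, 164.3 and 212.8 for *ChAT* and *VAChT* together. The log2 ratio was 3.12 ± 0.10 (a ratio of 8.70; SD, n = 3), and 2.02 ± 0.10 per kilobase. Sums over unequal numbers of genes favour the longer list. Taken singly, 4 of 8 subunits were above *VAChT* in normalized counts, but per kilobase only *nAChRbeta1* was.

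Beside the set, 40 markers of cells other than photoreceptors were read from 6 lists, and 35 of them had a row. In bulk nuclei, fewer nuclei of a type and less RNA per nucleus cannot be told apart. The 8 nicotinic subunits had a median of 4.34 normalized counts per kb and a range from 0.570 to 21.5. The 8 transmitter markers of other neurons with a row, among them *VGlut* and *Gad1*, had a median of 5.25 (0.398 to 18.1), and the 8 glia markers a median of 9.96 (1.21 to 25.4). Lamina neuron markers had a median of 2.18 over 4 genes and muscle markers 2.82 over 7. Cone and pigment cell markers stood at 3.87 and fat body and blood markers at 9.95, over 4 genes each. Of the 35, 0 were at 0 in all libraries. In normalized counts, the summed glia markers were 552, 583 and 539 in replicates 1, 2 and 3, the transmitter markers 562, 523 and 587, and the lamina markers 242, 226 and 256. Muscle markers summed to 547 to 576, cone and pigment cell markers to 455 to 496, and fat body and blood markers to 3246 to 4274, of which *apolpp* alone gave 2974 to 3962. The nicotinic levels per kilobase thus lay in the same range as these markers. Without division by length the nicotinic median was above that of each marker list: it was 185.5 normalized counts, against 39.6 for glia, 45.8 for muscle, 46.2 for transmitter and 67.4 for lamina markers. Fat body and blood markers had a median of 142.9 normalized counts, and cone and pigment cell markers 109.8. The nicotinic median covers the 8 chosen subunits. *nAChRbeta2*, at 31.0 normalized counts, is not among them, and including it would lower this median. The part of other cells in the nicotinic levels was not tested.

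Per kilobase *Ace* was above 33 of 35 markers of other cells, the exceptions being *Pdh*, a pigment cell gene at 236 per kb, and *apolpp*, a fat body lipoprotein gene at 204 per kb. *nAChRbeta1* was above 32 of 35 and *nAChRalpha7* above 26, whereas *nAChRalpha1* was above 7 and *nAChRalpha3* above 2. Without division *Ace*, *nAChRalpha4*, *nAChRalpha5* and *nAChRalpha6* were each above 34 of 35, *nAChRalpha7* was above 33, *nAChRbeta1* and *nAChRalpha1* were above 25 and *nAChRalpha3* was above 17. Per kilobase all of the set lay below the 12 photoreceptor markers, the lowest being *Hdc* with 178 per kb. In normalized counts *Ace*, at 2680, was above *Hdc*, at 1440, and below the other 11, while the 9 receptor genes were below all 12.

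**Figure D5:**
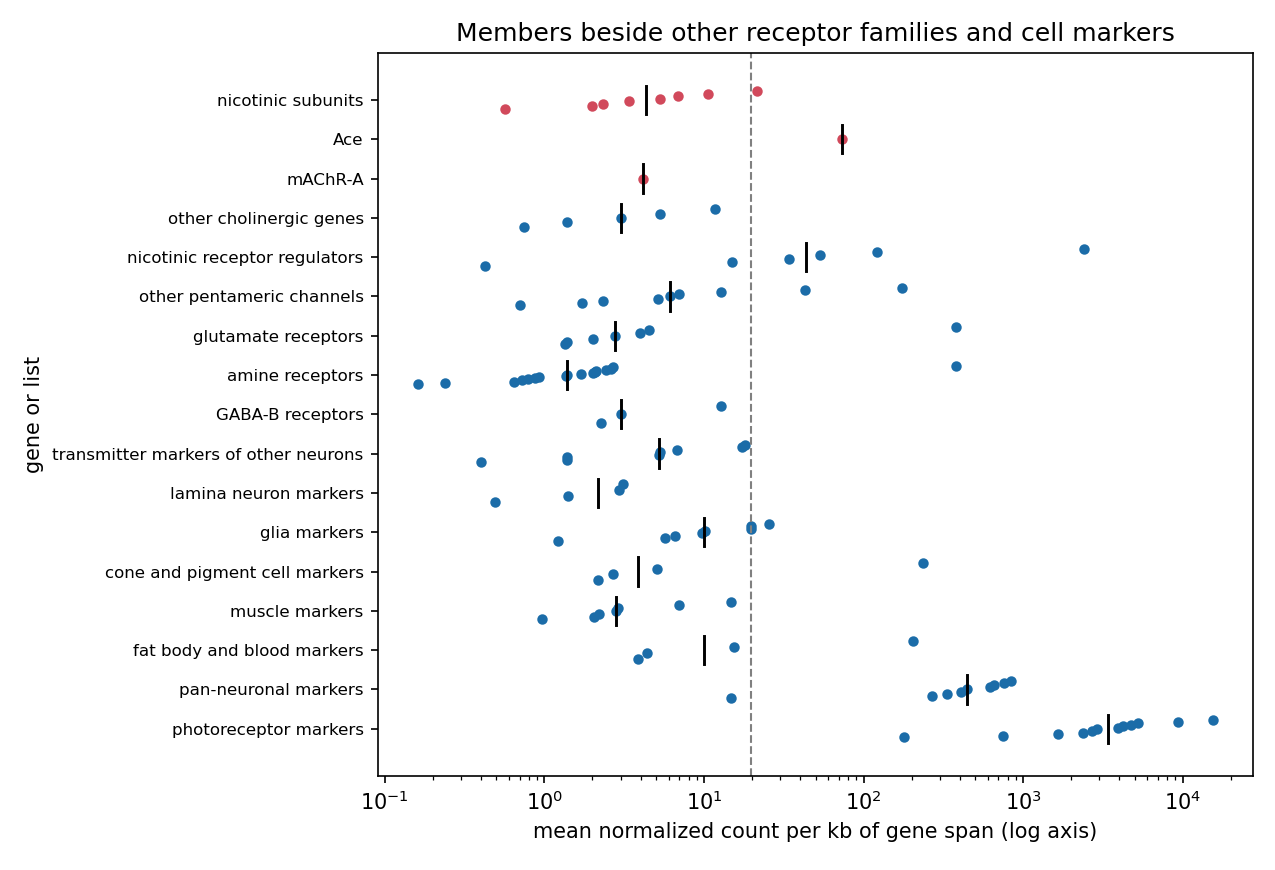
Mean normalized count per kilobase of gene span (log axis) for the acetylcholine genes (red) and for genes of other lists (blue); each point is a gene with a row, black bars are medians, and the dashed line is the median of all genes with a span, 19.6. The nicotinic subunits overlap the markers of other neurons and glia, and *Ace* at 73.3 lies to their right.

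Genes known to act on nicotinic receptors, or related to ones that do, formed a list of 8, of which 6 had a row. *qvr*, which encodes the Ly6-type protein Sleepless known to act on the Shaker potassium channel and on nicotinic receptors, had 22099, 19572 and 23945 normalized counts, or 2404 ± 241 per kb. It was the single gene of this list called by the chi-square test (adjusted p 1.68e-65, 1 of 5 tested), and 94.9% of the 78 genes with means of 10000 or more were called. *RIC-3*, the counterpart of a chaperone of nicotinic receptor assembly known from worms, had 857, 830 and 899 (121 ± 5 per kb). *hig*, a protein secreted into the cleft of cholinergic synapses, had 1086, 975 and 1050 (53.3 ± 2.9 per kb), and *Hasp*, which anchors Hig there, had 293, 317 and 233 (34.0 ± 5.3 per kb). *Unc50* had 13, 12 and 19 reads, and *twit*, another Ly6-type gene, 1, 3 and 0. All 4 genes named before *Unc50* thus stood above every nicotinic subunit per kilobase, whereas without division *Hasp* was below *nAChRalpha4*, *nAChRalpha5* and *nAChRalpha6*. *bou* and *crok* had no row.

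Other receptor families of the same nuclei gave a scale for the subunits. Per kilobase, the median log2 level of the 8 nicotinic subunits was above that of 17 amine receptor genes by 1.55 ± 0.18 and above that of 7 glutamate receptor genes with a row by 0.55 ± 0.39. The difference from glutamate receptors was 1.92 without division by length and 1.97 when listed genes lacking a row were set at 0. The difference of the nicotinic median from that of 9 other pentameric channel genes with a row was -0.55 ± 0.32. The sign of this last difference turned without division by length (2.89), and also when listed genes lacking a row were set at 0 (0.25). The nicotinic side was the 8 chosen subunits throughout. It left out *nAChRbeta2*, and *nAChRbeta3*, which had no row, was not set at 0 in it. Each family held genes well above its median: *DopEcR*, a receptor for dopamine and ecdysteroids, reached 377 per kb, *Ekar*, a kainate-type glutamate receptor known from photoreceptors, 379 per kb, and *HisCl1*, a histamine-gated chloride channel, 173 per kb. *pHCl-1*, a chloride channel gated by pH, had 2182 ± 315 normalized counts and 43.2 per kb. *nAChRbeta1*, the highest nicotinic gene, was at 21.5 per kb. At the other end were *Oct-TyrR* with 0.161, *GluRIB* with 1.34 and *Grd*, a GABA receptor subunit gene, with 0.706 per kb. *ort*, the histamine receptor of lamina neurons, had 6, 3 and 6 reads. GABA-B receptor genes, 3 in all, had a median of 3.02 per kb.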

How the data were processed

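Nuclear RNA of GFP-tagged photoreceptor nuclei was analysed from 3 libraries of 1 group, named by the replicate numbers of the labels. The authors deposited log2 values for 7602 genes. Per the deposited table's name, the authors normalized the counts with DESeq2. The submitters' processing notes name Trimmomatic, STAR and SAMtools and the builds dm6 and BDGP6 for the series as a whole; the counting program, annotation, strand setting and gene filter are not given in the sources used here. Raising 2 to each deposited log2 value and subtracting 1 gave whole multiples of 1 step per library for 100% of values (tolerance 0.001), which returned reads. Reads summed over the 7602 genes ran from 3051440 to 3781302 per library, without reads of genes lacking a row. Reads may include PCR copies, so the chi-square test covers counting error only. It was run wherever the mean normalized count reached 10, with Benjamini-Hochberg adjustment over 6903 genes and a threshold of 0.05. A trial on simulated reads used counting error as the only spread, apart from fold changes put in on purpose. That is the spread the test assumes, so the trial says nothing of other spread in real libraries. Symbols matched 7553 genes and RefSeq spans (Release 6 plus ISO1 MT) 7541. Nothing in the labels says that the libraries came from separate flies, so their spread may be technical. The members and the 14 gene lists (103 of 121 listed genes had a row) were chosen with earlier results of these data known. The genes named are the members, the remaining cholinergic genes, the highest and lowest gene of a list, and genes most like *Ace*; others, such as *RIC-3*, *hig*, *Hasp*, *Unc50*, *CG31128*, *CG1636*, *CG13578*, *VGlut* and *Gad1*, were added after their values were seen. Alternatives were other scalings, pseudocounts, minimum means, length divisions and leaving out each replicate. Division by coding or exon length was not run. Computation used pandas 2.3.3, scipy 1.17.1 and numpy 2.4.6 under Python 3.11.15.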

Additional observations from a re-analysis of the deposited data

How the results depend on the processing

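The count of acetylcholine genes with spread beyond counting error was 2 of 10, against 9.76% of all genes tested. It was 1 at a chi-square adjusted p under 0.01 (*Ace*), against 6.49%, and 1 with equal library totals (*nAChRalpha1*), against 9.76%. Without replicate 1, 2 or 3, where fewer libraries are compared, it was 1, 0 and 1, against 9.87%, 4.99% and 3.52%. Trimmed mean scaling kept it at 2, against 9.02%. Minimum means of 1 and 50 also kept it at 2, against 8.79% and 17.1%, but at 50 only 8 members were tested. The median level of the set above all genes, 1.64, was 1.34 against genes with a mean of at least 10. Per kilobase the set instead had a median of 4.72, below the 19.6 of all genes with a span. Its share of the table, 0.0917%, was 0.112% without the 10 highest genes in the total. The share of *Ace* in the set, 60.8%, was 56.3% per kilobase of gene span. The log2 ratio of *nAChRbeta1* to *nAChRalpha3*, 5.24, was 1.46 without division by length. The log2 ratio of the nicotinic sum to *ChAT* and *VAChT*, 3.12, was 5.54 against *ChAT* alone, 3.42 against *VAChT* alone and 2.02 per kilobase. The difference of nicotinic subunits from other pentameric channels, -0.55, turned to 0.25 with genes lacking a row at 0 and to 2.89 without division by length; that from glutamate receptors, 0.55, was 1.97 and 1.92 under the same settings; that from amine receptors, 1.55, was 2.11 without division. The alternatives per kilobase, with *VAChT* alone, without division for the receptor families and with other scalings for levels of single genes were chosen after seeing the data. A gene set at 0 can only lower its list, and the nicotinic side stayed at the 8 chosen subunits. Counting the settings that kept the count at 2, 36 settings of these results stayed within the spread between replicates, or within 1.5 times the count. Of the rest, 10 moved further, 5 lowered the count and 2 turned the sign. All 50 settings for levels of single genes stayed within the spread. For a mean over 3 libraries, leaving 1 out cannot move it by as much as its SD, so those settings could not have failed. All 17 amine receptor genes had a row, so setting genes lacking a row at 0 changed nothing there. Depth limits *nAChRalpha2*, with 6 to 12 reads. Division by coding or exon length was not run. No paired analysis was possible because all RNA libraries form 1 group.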

Other observations

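The genes whose pattern over the 3 libraries was most like that of *Ace* were *sm*, *CG3655* and *Gdap2*, by Euclidean distance of log2(normalized count + 1) centred over libraries, among 424 genes with means within 2-fold of that of *Ace*. *sm* had 3555, 3178 and 3756 normalized counts in replicates 1, 2 and 3, at a distance of 0.0041. *CG3655* had 1709, 1549 and 1814 and *Gdap2* 1740, 1568 and 1865. With 3 libraries this likeness separates little: 146 of the 424 genes lay within a distance of 0.1.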
